A study of Homo sapiens with 6 samples.

Results

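The nuclear-encoded subunits of respiratory complex I were examined in MDA-MB-231 cells, a human triple-negative breast cancer line, after treatment with NCD (nitidine chloride, a plant alkaloid). Members were the protein-coding genes whose symbol is NDUFA, NDUFB, NDUFC, NDUFS or NDUFV followed by a number, together with NDUFAB1, and 38 such genes were found among the 63241 gene identifiers. The DMSO group held 3 libraries from wild-type cells given 0.1% DMSO for 24 h. The NCD group held 3 libraries from wild-type cells of the same line given 5 μM NCD for 24 h, and their labels give no DMSO percentage. The free-text descriptions of NCD 2 and NCD 3 give the line other final digits, whereas their cell line field gives MDA-MB-231. No label says that the libraries of a group came from separate cultures, so the p-values measure the spread between these libraries, which may be technical. The comparison asks how NCD altered the transcripts of this enzyme.

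Complex I oxidises NADH in the mitochondrial matrix, passes the electrons to ubiquinone and pumps protons across the inner membrane. Its core subunits carry the flavin, the iron-sulfur clusters and the proton channels, and are split between nuclear genes and mitochondrial DNA, while the many accessory subunits surround the core and are needed for assembly and stability. Dedicated assembly factors join the modules and do not remain in the finished enzyme.

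Read totals ranged from 18223594 to 21629653 counts per library. All 38 members passed the filter on low counts and were among the 15295 genes tested. VIM, a mesenchymal marker, lay between 2491 and 3156 CPM (read counts scaled to a common library size with TMM factors) in the 6 libraries, whereas ESR1, PGR and CDH1, which mark hormone receptor positive or epithelial breast cells, and the leukocyte genes PTPRC and CD3E stayed at or below 0.384 CPM. CD44 fell from 966 to 998 CPM with DMSO to 261 to 289 CPM with NCD. COL1A1, a fibroblast collagen, rose from 2.32 to 3.56 CPM to 12.7 to 14.8 CPM, EPCAM rose from 2.52 to 2.89 CPM to 3.78 to 4.20 CPM, and the part of other cells in the results was not tested. In bulk RNA, fewer cells of a type and less RNA per cell cannot be told apart.

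Within each group 1 library stood apart for these genes. DMSO 2 was the lowest DMSO library for 37 of the 38 members and NCD 3 was the lowest NCD library for 36 of the 38, against 31.5% and 39.8% of all tested genes. The median deviation of the members from their group mean was -0.20 in DMSO 2 and -0.17 in NCD 3 on the log2(CPM + 1) scale. The same libraries were lowest for 82 of 82 cytosolic ribosomal protein genes. The part of this shared shift in each member's result was not tested, and values without these libraries stand beside the counts.

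Promoter sequences were available for 32 members from RefSeq (GRCh38.p14) as windows of 300 bases, 250 before and 50 after a start site. NDUFA4, NDUFB5, NDUFB9, NDUFC2 and NDUFS5 were among those with no entry. The letters ATGGCGG (YY1), searched on both strands, occurred in 15 of the 32 members, that is in 41.0% of 39 member windows against 5.55% of all 35116 windows and 9.07% of the 16003 windows of tested genes. The letters CGCANGCG (NRF1, nuclear respiratory factor 1) occurred in 12 members, in 33.3% of member windows against 10.0% of all windows and 16.3% of those of tested genes. The letters CGGAAGT (ETS) occurred in 3 members, in 7.69% of member windows against 6.83% and 11.5%. These matches describe letters and are not evidence of binding. The windows include 50 bases after the start site, and ATGGCGG opens with the start codon ATG. A match within the transcript can thus be the first codons of a protein, and such matches were not counted apart.

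The 4 windows around the YY1 letters (in capitals) belong to the members that kept their call in every processing alternative and hold the letters, and they include genes that fell (NDUFS4, NDUFA9) and genes that rose (NDUFA7, NDUFS3). They lie at chr5:53560653-53560679 on the plus strand, chr12:4649117-4649143 on the plus strand, chr19:8321513-8321539 on the minus strand and chr11:47579082-47579108 on the plus strand. The letters begin at base 25, base 14 and base 19 of the transcript in NDUFS4, NDUFA9 and NDUFS3, and 154 bases before the start in NDUFA7.
NDUFS4: ctgcagcaagATGGCGGcggtgtcaat
NDUFA9: gtgggaaaagATGGCGGctgccgcaca
NDUFA7: ggtgtccatgATGGCGGcgcggcggcg
NDUFS3: tctgagtaacATGGCGGcggcggcggt

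The NRF1 letters (in capitals) are shown for the members of the same kind that hold them, NDUFA9, which fell, at chr12:4649025-4649052 on the plus strand, and NDUFA8, which rose, at chr9:122159765-122159792 on the minus strand. In NDUFA8 overlapping matches run together, and letters of the YY1 and NRF1 matches do not overlap in NDUFA9.
NDUFA9: tcttggttagCGCTTGCGcagacaggcg
NDUFA8: ttgccggatgCGCATGCGCAGGCGccgt

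NDUFS4, the member that fell furthest, also had the lowest GC content of the matched members, 40.3% of its window, where the median member window held 60.3% and the median of all windows was 58.7%. The 200 bases before its start site (chr5:53560439-53560638, plus strand, 38.5% GC) are shown beside those of NDUFB10 (chr16:1959338-1959537, plus strand, 76.5% GC), the member that rose furthest, and none of the searched letters occurs in either stretch.
NDUFS4: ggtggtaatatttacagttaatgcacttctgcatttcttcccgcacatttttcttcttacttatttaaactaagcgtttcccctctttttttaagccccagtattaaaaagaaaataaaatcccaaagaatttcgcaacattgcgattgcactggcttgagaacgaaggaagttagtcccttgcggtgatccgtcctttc
NDUFB10: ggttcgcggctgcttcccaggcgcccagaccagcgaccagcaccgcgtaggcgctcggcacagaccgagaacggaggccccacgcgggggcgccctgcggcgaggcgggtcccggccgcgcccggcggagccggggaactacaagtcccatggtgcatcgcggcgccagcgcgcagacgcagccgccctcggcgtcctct

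Most nuclear complex I transcripts stayed within a 2-fold range of their DMSO level. In every alternative tried, 3 accessory subunits (NDUFS4, NDUFA9 and NDUFA10) were lower, while NDUFB10, NDUFA7, NDUFA8 and NDUFS3 were higher. Of the 38 members, 12 were higher with NCD (31.6%, where 35.3% of all tested genes were) and 5 were lower (13.2%, where 34.1% were) at an adjusted p below 0.05 in edgeR's quasi-likelihood test, and 21 did not pass. Adding a log2 fold change beyond 1 in either direction, which defined differential expression here, left 1 of the 38 members, NDUFS4, against 31.0% of all tested genes (13.5% higher and 17.5% lower). At an unadjusted p below 0.05, 14 members were higher and 5 lower, where 36.6% and 35.3% of all tested genes were. The fold change of 37 members (97.4%) was within 2-fold, against 68.5% of all tested genes. The median log2 fold change was 0.09 over members and 0.04 over all tested genes, with quartiles of -0.14 and 0.32 over members and -0.66 and 0.60 over all. The CPM of the groups did not overlap for 12 members, 6 with NCD above DMSO (37.2% of all tested genes) and 6 with NCD below (35.3%).

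These counts depended on single libraries and on the scaling. Without DMSO 1 they were 15 higher and 3 lower, without DMSO 2 they were 5 and 12, and without DMSO 3 they were 4 and 4. Without NCD 1 they were 5 and 5, without NCD 2 they were 4 and 5, and without NCD 3 they were 17 and 5. Over all genes tested in these 6 fits, 30.2% to 34.3% were higher and 31.1% to 35.8% lower. Leaving out DMSO 2 and NCD 3 together, an alternative chosen after the data were seen, gave 18 higher and 13 lower, where 36.5% and 36.6% of all tested genes were. Scaling by library totals gave 20 higher and 3 lower, where 44.6% and 27.3% of all tested genes were, and moved the median of all genes from 0.04 to 0.23. No member was called in the opposite direction in any of the 17 alternatives. In all of them 7 members kept their call: NDUFS4, NDUFA10 and NDUFA9 lower, and NDUFB10, NDUFA7, NDUFA8 and NDUFS3 higher. The share of all tested genes that kept a call throughout was not counted.

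**Figure D1:**
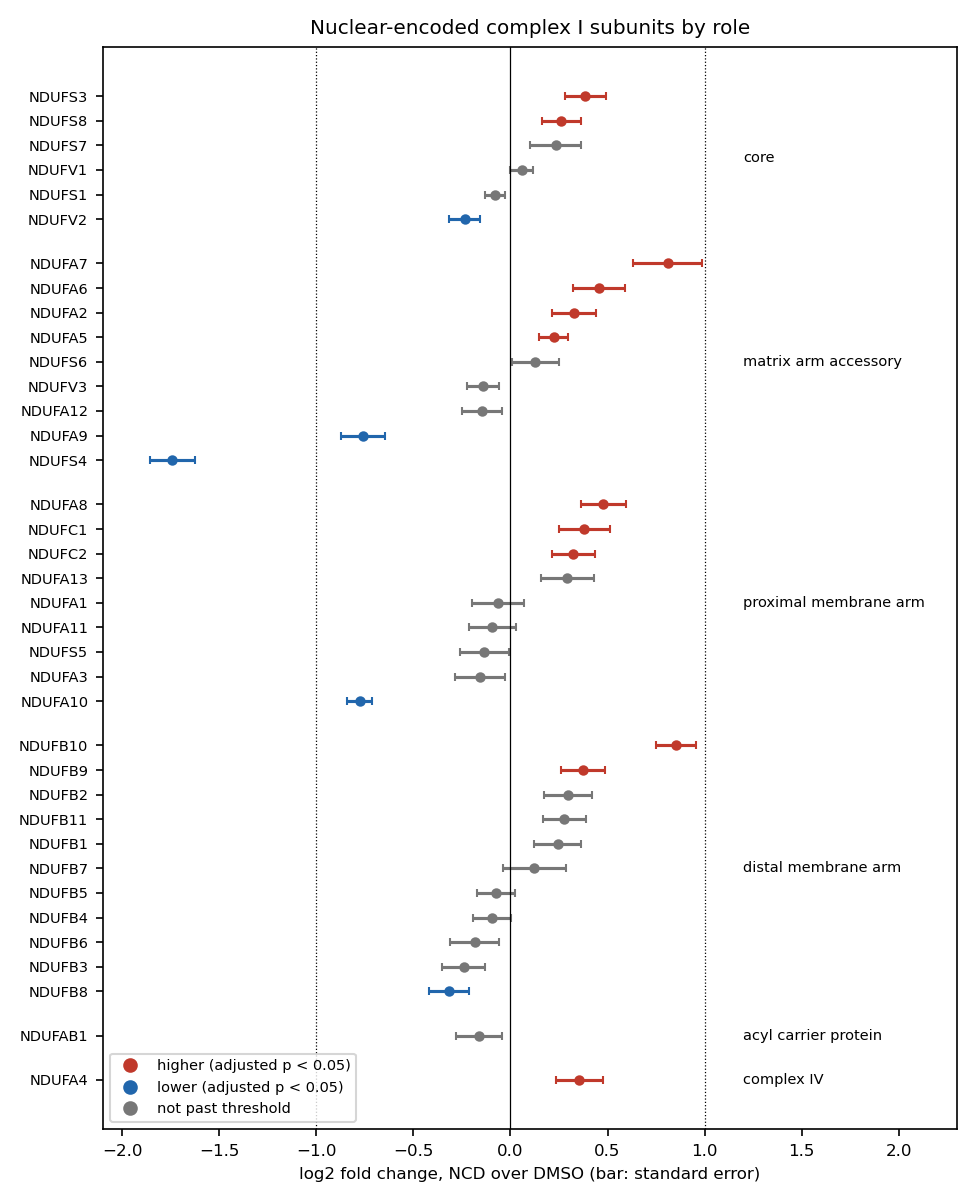
Log2 fold change of NCD over DMSO (x axis) for 37 of the 38 members, grouped by role, with points for the edgeR estimate, bars for its standard error, and dotted lines at a log2 fold change of 1 in each direction. NDUFS4, at -1.74, is the only one beyond a dotted line, and under scaling by library totals NDUFB10 and NDUFA7 also lay past it.

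Among the 6 nuclear core subunits described here, 2 rose, 1 fell and 3 did not pass. NDUFS3, which sits at the base of the matrix arm, measured 79.1, 62.4 and 76.1 CPM in DMSO 1 to 3 and 97.7, 103 and 84.0 CPM in NCD 1 to 3. All NCD libraries lay above all DMSO libraries, and NDUFS3 rose (log2 fold change 0.39, SE 0.11, edgeR adjusted p = 0.00997). NDUFS8, an iron-sulfur subunit of the same arm, measured 43.7, 39.9 and 42.7 CPM with DMSO and 53.4, 55.3 and 42.9 CPM with NCD. NCD 3 lay between DMSO 1 and DMSO 3, and the rise was small (log2 fold change 0.26, SE 0.10, edgeR adjusted p = 0.0457). The call for NDUFS8 was lost in 11 alternatives, DESeq2 and limma-voom among them.

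NDUFV2, an iron-sulfur protein of the NADH-oxidising tip, was the core subunit that fell. It measured 124, 108 and 114 CPM with DMSO and 101, 103 and 89.7 CPM with NCD, without overlap (log2 fold change -0.24, SE 0.08, edgeR adjusted p = 0.0234), and its call was lost under library totals, with ribosomal protein genes as reference and without DMSO 1. NDUFV1, its partner that binds NADH and the flavin, measured 106, 96.4 and 100.5 CPM with DMSO and 109, 104 and 102 CPM with NCD (log2 fold change 0.06, SE 0.06, edgeR adjusted p = 0.419). The groups overlapped for NDUFV1, which passed under library totals at 0.26 (edgeR adjusted p = 0.00229).

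NDUFS1 and NDUFS7 were further core subunits that did not pass. NDUFS1, an iron-sulfur subunit of the same tip, measured 156, 148 and 148 CPM with DMSO and 141, 145 and 143 CPM with NCD. Its groups did not overlap, yet the difference did not pass (log2 fold change -0.08, SE 0.05, edgeR adjusted p = 0.21). NDUFS7, which carries the iron-sulfur cluster nearest the quinone, measured 33.0, 25.4 and 26.5 CPM with DMSO and 36.7, 34.9 and 28.1 CPM with NCD, and its groups overlapped (log2 fold change 0.23, SE 0.13, edgeR adjusted p = 0.141). Under library totals the value of NDUFS1 turned positive, at 0.12, and NDUFS7 passed under library totals at 0.43, without NCD 3 at 0.32, and without DMSO 2 and NCD 3 together at 0.26.

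The 9 accessory subunits of the matrix arm held the widest range, from -1.74 to 0.81 on the log2 fold change scale, with 4 members higher, 2 lower and 3 not past the threshold. NDUFS4 (chr5:53560633-53683340, plus strand, GENCODE 29 on GRCh38), a small subunit near the NADH-oxidising tip whose loss in people is a known cause of Leigh syndrome, measured 79.8, 64.8 and 75.4 CPM with DMSO and 23.6, 23.5 and 18.7 CPM with NCD. Every NCD library lay far below every DMSO library. NDUFS4 fell by 70.1% (log2 fold change -1.74, SE 0.12, edgeR adjusted p = 1.52e-06), and the log2 fold change lay between -1.83 and -1.54 across the alternatives.

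NDUFA9 (chr12:4649095-4694317, plus strand), which stabilises the junction between the matrix and membrane arms, measured 117, 90.0 and 110 CPM with DMSO and 66.5, 66.3 and 54.5 CPM with NCD. The groups did not overlap, and NDUFA9 fell (log2 fold change -0.76, SE 0.11, edgeR adjusted p = 0.000283). A readthrough gene that overlaps NDUFA9 on the same strand (ENSG00000255639) held counts equal to at most 29.1% of the counts of NDUFA9, with means of 23.8 CPM with DMSO and 17.2 CPM with NCD, so its reads and those of NDUFA9 may be split.

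NDUFA7 (chr19:8308768-8321396, minus strand) measured 23.2, 15.2 and 22.1 CPM with DMSO and 42.0, 35.2 and 28.8 CPM with NCD. All NCD libraries were above all DMSO libraries, although NCD 3 lay nearer to DMSO 1 than to NCD 1, and NDUFA7 rose (log2 fold change 0.81, SE 0.18, edgeR adjusted p = 0.00306). A readthrough gene shared with NDUFA7 (ENSG00000167774) rose from a mean of 1.45 to 8.79 CPM. Within a library it reached 36.7% of the counts of NDUFA7. The largest count of RPS28, on the opposite strand, in any library was 654% of the largest count of NDUFA7 in any library. Adding the readthrough counts, an alternative chosen after the data were seen, took NDUFA7 to 1.03, past the fold threshold.

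NDUFA6, a member of the LYR family that docks the acyl carrier protein, measured 77.7, 55.1 and 62.6 CPM with DMSO and 93.5, 97.7 and 76.5 CPM with NCD. NCD 3 lay just below DMSO 1, and NDUFA6 rose (log2 fold change 0.45, SE 0.13, edgeR adjusted p = 0.0137), a call lost without DMSO 3, without NCD 1 or without NCD 2. NDUFA2 and NDUFA5 rose with log2 fold changes of 0.33 and 0.22. The groups overlapped for NDUFA2, whose call was lost without DMSO 2, DMSO 3, NCD 1 or NCD 2. The call for NDUFA5 was lost without DMSO 2, DMSO 3, NCD 2 or NCD 3, and with ribosomal protein genes as reference. NDUFS6, NDUFV3 and NDUFA12 had values of 0.13, -0.14 and -0.15 and did not pass.

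The 9 accessory subunits of the proximal membrane arm comprised 3 that rose, 1 that fell and 5 that did not pass. NDUFA10 (chr2:239892450-240025402, minus strand), a kinase-like subunit on the matrix side of the membrane arm, measured 64.1, 64.7 and 62.4 CPM with DMSO and 37.6, 38.3 and 35.6 CPM with NCD. It had the tightest groups of the 7 members with a lasting call (SD 1.21 and 1.40 CPM, n = 3 each), DMSO 2 was not its lowest library, and it fell (log2 fold change -0.78, SE 0.07, edgeR adjusted p = 6.82e-06). NDUFA8 (chr9:122144058-122159819, minus strand), which faces the intermembrane space, measured 88.8, 67.2 and 83.9 CPM with DMSO and 119, 117 and 98.1 CPM with NCD. The groups did not overlap, and NDUFA8 rose (log2 fold change 0.48, SE 0.11, edgeR adjusted p = 0.00468).

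NDUFC1 and NDUFC2, small membrane subunits, rose with log2 fold changes of 0.38 and 0.32. Their groups overlapped, and both calls were lost without DMSO 2, DMSO 3, NCD 1 or NCD 2. NDUFA13, also known as GRIM-19, NDUFA1, NDUFA11, NDUFS5 and NDUFA3 ranged from -0.16 to 0.29 and did not pass.

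Of the 11 subunits of the distal membrane arm, where the mitochondrially encoded ND4 and ND5 pump protons, 2 rose, 1 fell and 8 did not pass. NDUFB10 (chr16:1959508-1961975, plus strand), an intermembrane space subunit held by disulfide bonds, measured 43.6, 38.1 and 45.4 CPM with DMSO and 79.3, 83.7 and 66.4 CPM with NCD. Every NCD library was above every DMSO library, and NDUFB10 rose 1.81-fold (log2 fold change 0.85, SE 0.10, edgeR adjusted p = 7.61e-05). NDUFB8, a subunit often used as a protein marker of assembled complex I, measured 246, 187 and 220 CPM with DMSO and 182, 185 and 158 CPM with NCD. The gap between DMSO 2 and NCD 2 was narrow, and NDUFB8 fell (log2 fold change -0.31, SE 0.10, edgeR adjusted p = 0.0221), a call lost under library totals and without DMSO 1 or DMSO 3.

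NDUFB9 rose with a log2 fold change of 0.37. Its groups were parted only by the gap between 39.35 CPM in DMSO 1 and 39.40 CPM in NCD 3, and the call was lost without DMSO 2, DMSO 3, NCD 1 or NCD 2. NDUFB2, NDUFB11, NDUFB1, NDUFB7, NDUFB5, NDUFB4, NDUFB6 and NDUFB3 ran from 0.30 to -0.24 and did not pass, NDUFB11 lying nearest to the threshold (edgeR adjusted p = 0.0521).

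The remaining members, NDUFAB1 and NDUFA4, were not grouped with a module here. NDUFAB1, the mitochondrial acyl carrier protein, which also serves lipoic acid and iron-sulfur cluster synthesis, measured 79.7, 56.6 and 69.7 CPM with DMSO and 61.7, 65.5 and 56.9 CPM with NCD. The groups overlapped and the difference did not pass (log2 fold change -0.16, SE 0.12, edgeR adjusted p = 0.247). It did pass without DMSO 2, at -0.29, and without DMSO 2 and NCD 3 together, at -0.24. NDUFA4, now placed in complex IV, measured 168, 128 and 148 CPM with DMSO and 202, 206 and 160 CPM with NCD. NCD 3 lay below DMSO 1, and NDUFA4 rose (log2 fold change 0.36, SE 0.12, edgeR adjusted p = 0.0262), a call lost without DMSO 2, DMSO 3, NCD 1 or NCD 2.

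**Figure D2:**
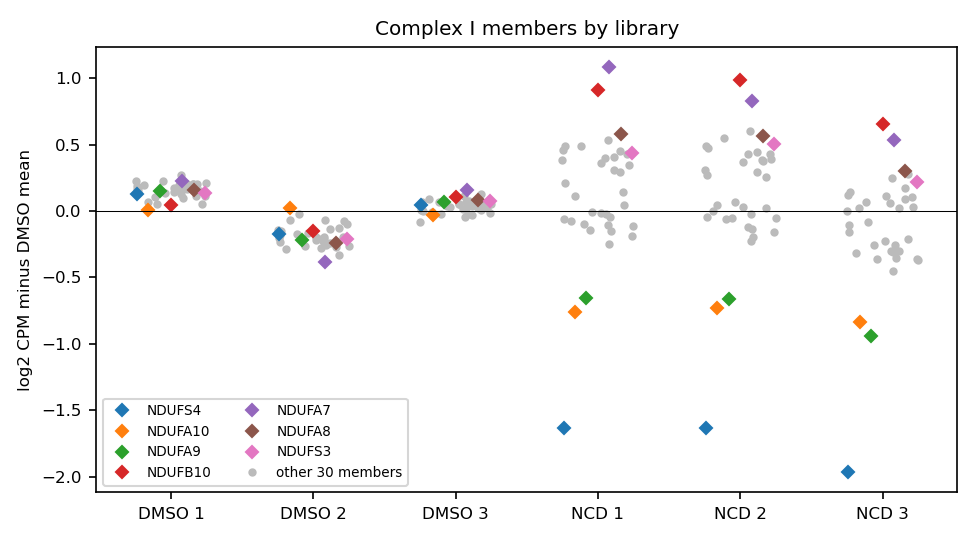
Log2 CPM of 37 members in each library, minus the mean over its 3 DMSO libraries, with diamonds for the 7 members that kept their call in every alternative and grey points for the other 30, spread sideways for legibility. Most points of DMSO 2 lie below 0, NCD 3 lies below the other NCD libraries for most members, and NDUFS4 lies below the other members in each NCD library.

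The members that fell most were among the longest genes. In GENCODE 29, NDUFA10 spans 133.0 kb, NDUFS4 spans 122.7 kb and NDUFA9 spans 45.2 kb, against a median of 13.8 kb over members. Among all tested genes the median log2 fold change was 0.37 at spans up to 20 kb, 0.18 from 20 to 50 kb, -0.31 from 50 to 100 kb and -1.46 beyond 100 kb, where 67.0% were differentially expressed and lower. Only 3 members exceed 100 kb, and the third, NDUFA12 (106.7 kb in GENCODE 29 but 32.4 kb in RefSeq), had a log2 fold change of -0.15. NDUFS1, at 44.8 kb, had nearly the span of NDUFA9 and a value of -0.08. Across the 38 members, which share these libraries, Spearman's rho between span and log2 fold change was -0.34, and it was -0.49 with RefSeq spans for 37 members. The part of gene span in the members' results was not tested.

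**Figure D3:**
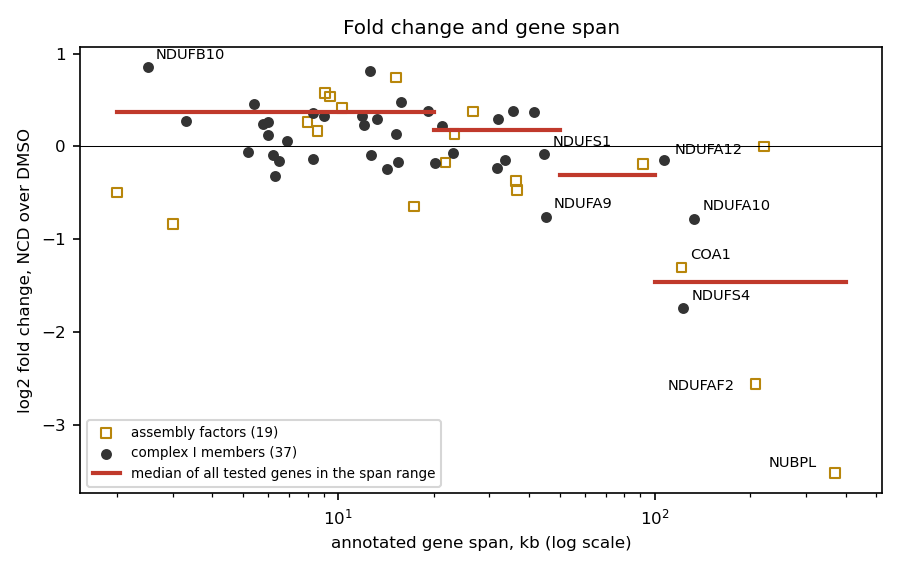
Log2 fold change of NCD over DMSO against annotated gene span in kb (log axis) for 37 members (filled points) and the 19 assembly factors (open squares), with red lines for the median of all tested genes in each of 4 span ranges. NDUFS4 and NDUFA10 lie at the long end, and NDUFB10, at 2.5 kb, is the shortest member and the highest.

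Of the complex I assembly factors, NUBPL, NDUFAF2 and COA1 fell past the fold threshold. All 19 listed were tested, with 6 higher (31.6%, where 35.3% of all tested genes were) and 8 lower (42.1%, where 34.1% were), 3 of the latter differentially expressed (15.8%, against 17.5% of all tested genes in that direction), and a median log2 fold change of -0.17. NUBPL, which delivers iron-sulfur clusters to the complex, measured 14.7, 11.6 and 11.2 CPM with DMSO and 1.01, 1.29 and 0.979 CPM with NCD, the groups being far apart (log2 fold change -3.52, SE 0.18, edgeR adjusted p = 3.52e-07). NDUFAF2, which binds a late assembly intermediate, measured 66.4, 49.1 and 54.1 CPM with DMSO and 10.3, 9.21 and 9.28 CPM with NCD (log2 fold change -2.56, SE 0.12, edgeR adjusted p = 2.42e-07). COA1, a factor of the membrane arm, measured 86.3, 77.7 and 86.6 CPM with DMSO and 32.8, 33.4 and 35.3 CPM with NCD (log2 fold change -1.30, SE 0.07, edgeR adjusted p = 5.23e-07). All 3 fell without overlap, and they span 371.3, 207.9 and 121.3 kb, while NDUFAF6, which spans 220.7 kb, had a log2 fold change of -0.00 (edgeR adjusted p = 0.995).

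NDUFAF1, which works with the membrane arm assembly complex, was the largest rise of the list, from 29.4, 22.8 and 24.5 CPM with DMSO to 43.7, 43.4 and 41.2 CPM with NCD (log2 fold change 0.74, SE 0.10, edgeR adjusted p = 0.000147). Scaling by library totals turned the counts of the list to 8 higher and 6 lower, where 44.6% and 27.3% of all tested genes were. Its median became 0.03, where that of all tested genes was 0.23, and NUBPL, NDUFAF2 and COA1 stayed differentially expressed. Without DMSO 2 and NCD 3 together the counts were 6 higher and 10 lower, where 36.5% and 36.6% of all tested genes were.

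All 7 mitochondrially encoded complex I subunits, which form the core of the membrane arm, fell (34.1% of all tested genes were lower). MT-ND1, next to the quinone site, fell least, from 2979, 2892 and 2986 CPM to 2351, 2320 and 2331 CPM (log2 fold change -0.34, SE 0.06, edgeR adjusted p = 0.00118). MT-ND5, at the distal end, fell most, from 4558, 4557 and 4580 CPM to 1681, 1597 and 1756 CPM (log2 fold change -1.44, SE 0.07, edgeR adjusted p = 2.46e-07). MT-ND4L and MT-ND6 were also differentially expressed, with log2 fold changes of -1.17 and -1.11 (17.5% of all tested genes were differentially expressed and lower). The groups did not overlap for any of the 7, with NCD below DMSO as for 35.3% of all tested genes. All 7 stayed lower in each of the 17 alternatives. Under library totals 1 of them remained past the fold threshold, where 2181 of the 15295 tested genes were differentially expressed and lower.

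The 38 nuclear members summed to 3779, 2982 and 3487 CPM in DMSO 1 to 3 and to 3662, 3709 and 3121 CPM in NCD 1 to 3. The groups overlapped, and the ratio of their means was 1.02 with TMM scaling. As shares of all counts, without TMM factors, the members took 0.344%, 0.283% and 0.328% in DMSO 1 to 3. In NCD 1 to 3 they took 0.387%, 0.393% and 0.340%. The 7 mitochondrial genes summed to 25037, 24345 and 24830 CPM with DMSO and 14641, 14359 and 14756 CPM with NCD, a ratio of 0.590. Genes of the mitochondrial chromosome took 6.39% to 6.74% of all counts with DMSO and 4.90% to 4.97% with NCD.

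**Figure D4:**
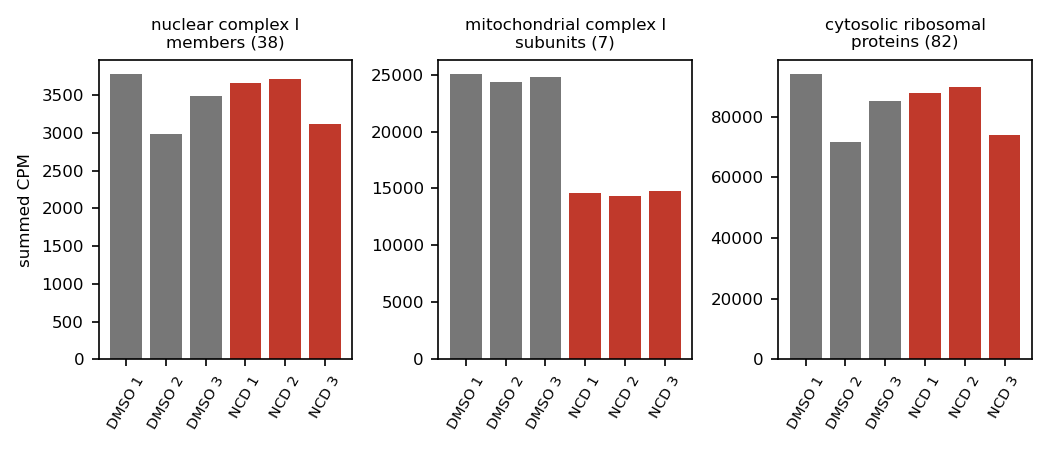
Summed CPM (y axes, from 0, with a different scale in each panel) of the 38 nuclear members, the 7 mitochondrial complex I genes and 82 cytosolic ribosomal protein genes, with 1 bar per library, grey for DMSO and red for NCD. DMSO 2 and NCD 3 are the lowest bars of their groups for the nuclear members and for the ribosomal protein genes, and the mitochondrial sums of the groups do not overlap.

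A list of related genes held NDUFA4L2, regulators of respiratory chain transcription, the complex II subunits SDHA, SDHB, SDHC and SDHD, and the genes AIFM1, NNT and LDHA. Of 19 listed, 18 were tested, with 3 higher (16.7%, where 35.3% of all tested genes were) and 12 lower (66.7%, where 34.1% were), SDHA and SDHC being among the latter. Of these, 7 were differentially expressed, all lower (38.9%, where 17.5% of all tested genes were). NDUFA4L2, a paralog of NDUFA4, was not tested and stayed at or below 0.140 CPM. NNT, which uses the proton gradient to make NADPH from NADH, measured 130.0, 137 and 130.1 CPM with DMSO and 18.5, 16.5 and 21.6 CPM with NCD, far apart (log2 fold change -2.81, SE 0.10, edgeR adjusted p = 4.16e-08). HIF1A, the oxygen-regulated transcription factor, and LDHA, which oxidises NADH while making lactate, fell with log2 fold changes of -1.57 and -1.39. NRF1 and GABPB1, which encode activators of respiratory chain genes, fell by 1.18 and 1.30 on the log2 scale, while AIFM1, a mitochondrial import and redox protein, and the coactivator PPARGC1B had values of -1.22 and -1.15. ESRRA, a nuclear receptor of mitochondrial genes, was the largest rise (log2 fold change 0.58, SE 0.11, edgeR adjusted p = 0.0013). Under library totals 5 genes were higher and 11 lower, where 44.6% and 27.3% of all tested genes were. In that fit 5 were differentially expressed and lower, as were 2181 of the 15295 tested genes. Without DMSO 2 and NCD 3 the counts were 4 and 13, where 36.5% and 36.6% of all tested genes were.

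The other nuclear genes of the respiratory chain and the mitochondrial ribosome were read from the same fit. Among 38 subunits of complexes II to V, 5 were higher (13.2%, where 35.3% of all tested genes were) and 10 lower (26.3%, where 34.1% were), none differentially expressed (31.0% of all tested genes were), and the median log2 fold change was 0.01, against 0.09 for complex I. Their counts became 16 and 5 under library totals, where 44.6% and 27.3% of all tested genes were higher and lower. With DESeq2 size factors they were 3 and 11, where 34.3% and 34.9% were. They were 2 and 15 without DMSO 2, 2 and 8 without DMSO 3, 2 and 9 without NCD 1 or NCD 2, and 9 and 8 without NCD 3. In those fits 30.2% to 34.3% of all tested genes were higher and 31.1% to 35.8% lower. Among 78 mitochondrial ribosomal protein genes, 23 were higher (29.5%) and 21 lower (26.9%), 5 differentially expressed and lower (6.41%, where 17.5% of all tested genes were), with a median of 0.07. Under library totals 40 of these were higher and 15 lower, where 44.6% and 27.3% of all tested genes were. DMSO 2 was the lowest DMSO library for 35 of the 38 and 69 of the 78 genes, and NCD 3 the lowest NCD library for 38 and 68. The difference between these lists and complex I was not tested.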

How the data were processed

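RNA-seq was measured in 3 DMSO and 3 NCD libraries. The authors deposited 1 table of expected counts per library, made with HISAT2 alignment and RSEM against GRCh38 (hg38), per the labels, without normalization. Tool versions, annotation release and strand setting are not given in the sources used here. Stray lines without a gene (25 per library) were skipped. Symbols, spans and coordinates came from GENCODE 29, which holds 99.44% to 99.51% of the counts.

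Expected counts were rounded and tested with edgeR 4.0.16 (R 4.3.3): filterByExpr, TMM scaling (factors 0.912 to 0.949 with DMSO, 1.059 to 1.092 with NCD), glmQLFit and glmQLFTest, with Benjamini-Hochberg adjustment over 15295 genes. The study used DESeq2. Genes with an adjusted p below 0.05 and a change of more than 1 log2 unit either way were called differentially expressed. Totals were 18223594 to 21629653 counts before scaling, and CPM used these totals multiplied by the TMM factors. No pair of libraries in a group agreed within sampling noise (chi-square per degree of freedom at least 2.05). The scripts were tested on simulated data.

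The members and lists were chosen with earlier results of these data known. Values by name for 1 member that these rules cover are not reported here. Values per library are given for the other core subunits, NDUFA4, NDUFAB1, differentially expressed members, and the 5 largest rises and falls among called members. List genes are named where differentially expressed or the largest rise or fall. Alternatives were DESeq2 1.42.0, limma-voom (limma 3.58.1), other scalings, filters and thresholds, a replicate block, libraries left out, shared reads added and longest transcripts. Figures used matplotlib 3.10.9.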

Additional observations from a re-analysis of the deposited data

How the results depend on the processing

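Calls of 7 members and of all 7 mitochondrially encoded subunits were kept in every alternative. The share of all tested genes with a call kept throughout was not counted. The count of differentially expressed genes was 4736 (3683 to 5545 over the alternatives). Of the single-gene values under alternatives, 512 kept their direction and side of the threshold, 24 lost and 6 gained it. Scaling by library totals gave 20 members higher, 3 lower, 3 differentially expressed (NDUFS4, NDUFB10 and NDUFA7) and a median of 0.29, and took NDUFS1 to 0.12 and NDUFAB1 to 0.037, which changed their sign. With 1 library left out, 4 to 17 members were higher and 3 to 12 lower, with a median of 0.00 to 0.12. Alternatives chosen after the data were seen gave 2 differentially expressed members with readthrough counts added, and 18 higher and 13 lower without DMSO 2 and NCD 3. The median level of members with DMSO was 103 CPM per kb of the median transcript and 52.8 of the longest, since a longer divisor lowers the level. With the replicate number as a block, 10 members were higher and 5 lower, where 33.9% and 33.4% of all tested genes were. In that fit 1 member was differentially expressed. Deviations from the group means correlated by 0.37, -0.33 and 0.02 between libraries of the same number, so the numbers were not taken to pair the samples. The other causes were not tested. With 3 libraries a group, the standard errors of the members ran from 0.05 to 0.18 on the log2 scale, which limits what can be seen of small changes.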

Other observations

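Per kilobase of the median annotated transcript, the DMSO level of the members ran from 15.1 CPM per kb for NDUFV3 to 345 CPM per kb for NDUFC2, with NDUFB8 and NDUFS5 next at 318 and 302. With the longest transcript as the divisor NDUFB8 came first at 305 and NDUFC2 fell to 76.9, while NDUFS7 came last at 10.0, so the order depends on the transcript length taken.

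Several members overlap expressed genes on the opposite strand, and the strand setting of the counting is not known. The largest count of each gene in any library was compared with the largest count of the member in any library. By this measure RPS28 reached 654% of NDUFA7, IK 200% of NDUFA2, EEF1B2 459% of NDUFS1, CELF1 152% of NDUFS3 and NAA15 211% of NDUFC1. PTPMT1, on the same strand as NDUFS3, reached 53.3% of it by the same measure. Within a library, annotated pseudogenes named after a member held at most 1.07% of its counts, for NDUFV2.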
